A study of Mus musculus with 38 samples.

Results

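Base-unpairing regions (BURs) that carried SATB1 in mouse brain were compared with BURs that did not. A BUR here is a stretch of mouse genomic DNA that bound recombinant SATB1 in vitro, and the BUR reference map lists 238380 of them. The 232068 BURs on chromosomes 1 to 19 and X were used. A BUR was called bound when a peak of a brain SATB1 list overlapped it by at least 1 bp. By this rule 72789 BURs were bound in both brain lists, 139116 in neither and 20163 in 1 list only, so the share bound in both lists was 31.4%. This share is the background for shares bound in both lists over all BURs. For shares in a single list it is 37.2% in brain replicate 1 and 34.2% in replicate 2. For means of both lists it is 35.7%.

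The series maps SATB1 and CTCF binding in mouse tissues by ChIP-seq, with chromatin that was purified through 8 M urea before immunoprecipitation or left unpurified. The BUR map came from naked, sonicated thymocyte DNA of C57BL/6 mice that was incubated with his-tagged SATB1 and captured on beads, and it has no replicate. The 2 brain samples were Satb1+/+ mice of the C57BL/6 strain. Cells of the cortex were suspended, crosslinked with formaldehyde and taken through urea, and SATB1 was precipitated with the home-made rabbit antibody 1583D. The suspension was not sorted, and per the labels only neurons among its cells express SATB1. Chromatin of other cells was thus present too, and a peak list averages over the neurons that express SATB1. The labels give an age of 5 weeks for replicate 1 and 6 weeks for replicate 2, while their protocol text gives postnatal day 13 and the methods text 6 to 10 weeks. The age at sampling is therefore not settled here. The labels number the samples as replicates 1 and 2 under the same experiment number, mark them as 10 and 12 cycles without saying of what, and do not say whether chromatin was prepared separately, so the spread between them may be in part technical. Peak lists hold no expression values, and the labelled tissue could not be checked against marker genes.

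SATB1 is a nuclear protein that folds chromatin and is abundant in thymocytes and in subsets of cortical neurons. It recognises BURs, which are clustered sequences with Cs and Gs separated onto opposite strands, so that one strand is made of A, T and only C or only G. Such DNA unpairs readily under negative superhelical strain. Naked DNA shows which BURs SATB1 can bind, and chromatin of a tissue shows which of them it occupied there.

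Sequences of short BURs, picked as extremes of fold enrichment, illustrate the comparison but not the typical BUR of either class. Positions count from 1 on mm9 (assembly NCBIM37), and the plus strand is printed 5′ to 3′. The first set holds the 3 BURs of 200 to 300 bp bound in both brain lists with the highest mean brain fold enrichment, leaving out exons and the regions in which every list of the series had a peak. Capitals mark CTAAT or its reverse complement ATTAG, a word more frequent in bound than in unbound BURs (below).
Bound BUR 1, chr16:91611225-91611517: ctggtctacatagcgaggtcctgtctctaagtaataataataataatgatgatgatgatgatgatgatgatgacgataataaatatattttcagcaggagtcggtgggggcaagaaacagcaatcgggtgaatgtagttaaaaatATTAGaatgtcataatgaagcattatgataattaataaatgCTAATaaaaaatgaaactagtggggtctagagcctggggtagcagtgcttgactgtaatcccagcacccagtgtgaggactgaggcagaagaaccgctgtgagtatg
Bound BUR 2, chrX:7660794-7661086: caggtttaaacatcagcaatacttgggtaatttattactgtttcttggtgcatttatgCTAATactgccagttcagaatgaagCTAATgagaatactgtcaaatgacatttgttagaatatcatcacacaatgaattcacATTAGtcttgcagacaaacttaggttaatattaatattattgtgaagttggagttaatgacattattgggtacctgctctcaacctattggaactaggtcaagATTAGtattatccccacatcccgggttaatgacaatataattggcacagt
Bound BUR 3, chr8:81828240-81828519: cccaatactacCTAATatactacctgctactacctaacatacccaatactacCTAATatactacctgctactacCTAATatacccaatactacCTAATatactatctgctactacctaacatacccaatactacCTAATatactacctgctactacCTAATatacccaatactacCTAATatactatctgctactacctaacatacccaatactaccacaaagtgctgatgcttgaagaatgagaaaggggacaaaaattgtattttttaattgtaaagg
Bound BUR 1 was intergenic, 7.90 kb from the nearest gene start, bound BUR 2 lay in an intron of Was, and bound BUR 3 lay in an intron of the predicted gene Gm4890. Their in vitro fold enrichment was 4.85, 3.61 and 3.48, whereas the fold enrichment was 23.3, 23.3 and 21.2 in brain replicate 1 and 24.3, 23.4 and 23.4 in replicate 2. They held 2, 4 and 7 copies of CTAAT. All 50-mers of the first and second were unique in the assembly, against 35.5% of those of the third.

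The second set holds 2 BURs of the same size range that were among the 3 with the highest in vitro fold enrichment of those bound in no SATB1 urea list of brain, thymus or skin. The marks are the same.
Unbound BUR 1, chr1:90631816-90632096: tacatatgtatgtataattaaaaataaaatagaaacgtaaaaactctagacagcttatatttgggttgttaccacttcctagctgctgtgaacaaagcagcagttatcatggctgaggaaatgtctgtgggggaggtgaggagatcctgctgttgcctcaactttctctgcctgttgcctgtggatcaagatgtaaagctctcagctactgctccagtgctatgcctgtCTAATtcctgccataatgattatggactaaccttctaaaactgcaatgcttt
Unbound BUR 2, chr11:51477138-51477416: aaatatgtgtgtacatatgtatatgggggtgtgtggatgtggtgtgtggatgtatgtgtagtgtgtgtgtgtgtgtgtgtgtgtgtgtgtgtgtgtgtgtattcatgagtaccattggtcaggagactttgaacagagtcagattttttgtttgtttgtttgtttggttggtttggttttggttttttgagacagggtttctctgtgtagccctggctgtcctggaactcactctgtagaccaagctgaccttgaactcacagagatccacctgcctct
Both were intergenic, and their in vitro fold enrichment was 29.1 and 27.3. The median over all lengths was 7.21 in BURs bound in both brain lists and 5.32 in those bound in neither. The in vitro folds of the bound and unbound examples thus run against the general order (below). The 2 unbound BURs held 1 and 0 copies of CTAAT. Every 50-mer of unbound BUR 1 was unique in the assembly, against 79.1% of those of unbound BUR 2.

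The last sequence was chosen after the relation with A/T-only stretches was seen. It is 1 of the 2 BURs with the highest in vitro fold enrichment among those of 200 to 300 bp that were bound in no SATB1 urea list, had only unique 50-mers and held an A/T-only stretch of at least 40 bp, which is in capitals.
BUR with a long A/T-only stretch, chr5:134538816-134539097: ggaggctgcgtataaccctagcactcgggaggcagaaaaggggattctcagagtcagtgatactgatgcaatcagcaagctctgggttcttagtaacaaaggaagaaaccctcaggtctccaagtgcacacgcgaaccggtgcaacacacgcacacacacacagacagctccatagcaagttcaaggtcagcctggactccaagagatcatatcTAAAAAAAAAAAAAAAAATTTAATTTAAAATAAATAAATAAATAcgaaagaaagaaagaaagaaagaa
The stretch measured 44 bp, the BUR was intergenic, and its in vitro fold enrichment was 6.71. It held no copy of CTAAT.

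The brain lists held 117963 peaks in replicate 1 and 109154 in replicate 2, of which 73.0% and 72.8% overlapped a BUR. Replicate 1 bound 86286 BURs (37.2%) and replicate 2 bound 79455 (34.2%), a mean of 35.7% ± 2.08 (SD, n = 2). Most bound BURs were shared by both lists: 84.4% of those bound in replicate 1 were bound in replicate 2, and 91.6% of those bound in replicate 2 were bound in replicate 1. Peaks on BURs were stronger than other peaks, with a median fold enrichment of 8.24 against 5.37 in replicate 1 and 8.40 against 5.59 in replicate 2. They also sat near the BUR summits. The median distance between the summit of the peak and that of the BUR was 41 bp in replicate 1 and 40 bp in replicate 2. Overlaps that only just met the rule were rare, since 315 bound BURs in replicate 1 and 236 in replicate 2 shared under 50 bp with a peak. The lists give no read counts, so no counting interval can be given. The authors state that total aligned reads in urea ChIP-seq were similar between the cell types. The depth of each list was not checked here.

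How well a BUR could be read by sequencing moved with occupancy. Per the methods, only unique matches of 50-base reads were kept by the authors. The BUR map nevertheless holds BURs without any unique 50-mer, and how the filter was applied to each list was not tested. The share of each BUR's 50-mers that occur once in the assembly was computed. Among the 2462 BURs without any unique 50-mer, 0.731% were bound in both brain lists and 99.0% in neither. In each skin list 5.16% of these BURs were bound, above the skin share over all BURs, and in thymus 0%. Where 10 to 50% of the 50-mers were unique, 10.2% of 3218 BURs were bound in both lists, and where 90% or more but not all were unique, 16.9% of 34174. Among the 173316 BURs whose every 50-mer was unique, 64219 were bound in both lists, a share of 37.1%. These are called unique BURs here, and values for them are given beside those for all BURs where stated. Their background is 37.1% for both lists, 43.8% for replicate 1 alone and 40.4% for replicate 2 alone. In BURs with few unique 50-mers, an absent peak and unoccupied DNA cannot be told apart. The brain lists also held no peak on unplaced or random sequence.

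Occupancy rose with the strength of binding in vitro. The fold enrichment of a BUR in the in vitro map had a median of 7.21 in BURs bound in both brain lists, 5.47 in those bound in 1 list and 5.32 in those bound in neither. Over unique BURs these medians were 7.07, 5.25 and 4.60. Of unique BURs with an in vitro fold under 3, 20.5% were bound in replicate 1 and 17.8% in replicate 2. With an in vitro fold of 15 to 20 it was 73.4% and 68.8%. In both lists the share rose at each step up to 20, and over all BURs it fell again above 15, where 44.3% and then 34.0% were bound in replicate 1. Of the BURs with a fold of 20 or more, 37.0% were unique, against 89.2% of those with a fold under 3.

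Strength in vitro also went with strength in the tissue. Among BURs bound in both lists, those with an in vitro fold under 4 had a median brain fold enrichment of 6.45 ± 0.065 (mean and SD of the 2 lists). At an in vitro fold of 15 or more it was 17.4 ± 0.677. Spearman's rho between the in vitro and the brain fold was 0.51 in replicate 1 and 0.45 in replicate 2 over the 72789 BURs, and between both brain lists it was 0.87. These are descriptions across BURs, which are not independent replicates, and the fold values of each list are relative to that sample's own local background.

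Bound BURs were longer. The median length was 480 bp for BURs bound in both lists and 417 bp for those bound in neither, and 473 and 383 bp for unique BURs. The difference between bound and unbound BURs was 58 bp in replicate 1 and 55 bp in replicate 2, a spread far smaller than the difference itself. Of unique BURs shorter than 300 bp, 15.2% were bound in both lists, against 44.0% at 450 to 500 bp and 76.9% at 1000 bp or more. The median in vitro fold of unique BURs also rose with length, from 3.61 under 300 bp to 9.08 at 500 to 550 bp. Between end classes of unique BURs, each of them went with occupancy at a fixed level of the other. At an in vitro fold under 4, 15.0% of unique BURs under 350 bp and 31.7% of those of 600 bp or more were bound in both lists, and at 600 bp or more the share rose to 75.6% at a fold of 9 or more. Over all BURs the relation was not steady. At a fold of 9 or more, 52.2% were bound in both lists at 350 to 400 bp, 37.5% at 500 to 600 bp and 56.8% at 600 bp or more.

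**Figure D1:**
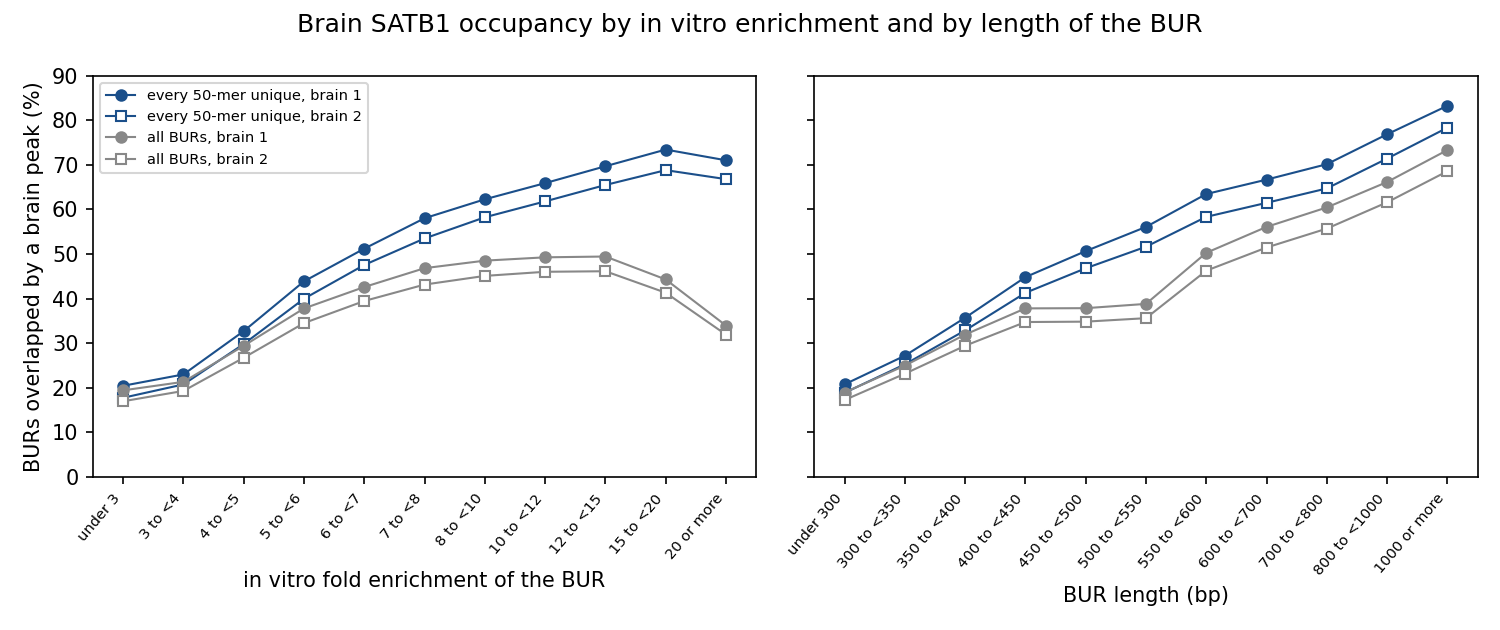
Share of BURs overlapped by a brain SATB1 peak (%, vertical axis) by in vitro fold enrichment (left) and by BUR length in bp (right). Filled circles are brain replicate 1 and open squares replicate 2, in blue for BURs whose every 50-mer is unique and in grey for all BURs. For unique BURs the share in replicate 1 runs from 20.5% to 73.4% at a fold of 15 to 20 and from 20.8% to 83.3% with length, and the grey lines bend down at high fold.

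AT content hardly set bound BURs apart on average, and the sign of the difference depended on uniqueness. Mean AT content was 70.2% in BURs bound in both lists and 69.3% in those bound in neither, against 58.2% over the assembly. The difference was 0.956 percentage points in replicate 1 and 0.811 in replicate 2. For unique BURs it was −0.690 and −0.782, so that bound BURs were slightly less AT-rich than unbound ones. The relation was not one-directional. Of unique BURs, 20.0% were bound in both lists at an AT content under 55%, 49.3% in the class of 2.5 points that starts at 65%, and 4.34% of 553 at 80% or more.

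Few BURs with long stretches of pure A and T were bound. The longest A/T-only stretch within the 200 bp centred on the BUR summit averaged 15.9 bp in BURs bound in both lists and 20.7 bp in those bound in neither, and 15.8 and 19.1 bp in unique BURs. Up to a stretch of 17 bp the share of unique BURs bound stayed between 43.9% and 49% in replicate 1 and between 42.2% and 46.0% in replicate 2. Beyond that it dropped at each step. At 30 to 34 bp 22.3% and 17.2% of 5597 unique BURs were bound, at 40 to 49 bp 6.25% and 4.80% of 4002, and at 50 bp or more 3.22% and 2.50% of 839. Such BURs were not weak in vitro, since the median in vitro fold was 4.97 at 12 to 14 bp and 7.98 at 40 to 49 bp.

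The drop was present at each level of in vitro fold examined. Among unique BURs with an in vitro fold of 9 or more, 81.7% of 8230 were bound in both lists when the stretch was 10 to 14 bp, 36.5% of 4935 at 25 to 34 bp, and 9.61% of 3183 at 35 to 49 bp. Among those with a fold under 4, the shares were 19.1%, 6.61% and 1.37%. The thymus and skin lists, which the rule did not use, were read in the same way. Their bound BURs lie mostly within those bound in brain (below), so their values are not independent of the brain values. In thymus, 18.7% and 15.1% of unique BURs were bound at 12 to 14 bp and 1.92% and 3.90% at 40 to 49 bp. In skin the shares were 3.60% and 3.54%, and 1.12% and 1.22%, with the highest values at 20 to 29 bp.

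**Figure D2:**
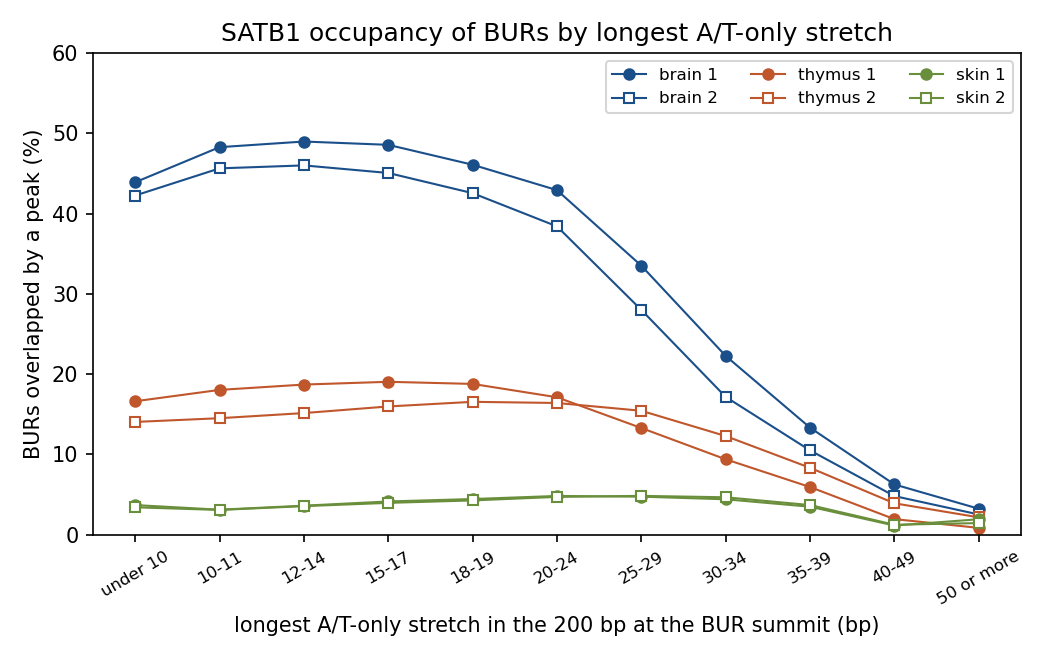
Share of unique BURs overlapped by a SATB1 peak (%, vertical axis) by the longest A/T-only stretch in the 200 bp at the BUR summit (bp, horizontal axis). Circles are replicate 1 and squares replicate 2 of the urea SATB1 lists of brain, thymus and skin. In brain replicate 1 the share is 46.1 to 49% at 10 to 19 bp and 3.22% at 50 bp or more.

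Stretches free of C or free of G, a sequence context described for BURs, were likewise not longer in bound BURs. The BURs of the map were called by binding in vitro and not by this context. Their longest run in the 200 bp at the summit averaged 35.8 bp in BURs bound in both lists and 48 bp in those bound in neither. The gap was narrower for unique BURs, at 35 and 39.6 bp. With a run under 25 bp, 43.8% of unique BURs were bound in both lists, and with a run of 70 to 99 bp 16.4% were. BURs with simple repeats were bound less often than the 37.1% of all unique BURs. Of 1640 unique BURs with AT repeated over at least 16 bp, 4.27% were bound in both lists, and of 814 with AC or GT repeated over at least 16 bp, 22.0% were. AG or CT repeated over at least 20 bp was found in 75 unique BURs, of which 9.33% were bound in both.

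The words most enriched in bound over unbound BURs had 1 core in common. Each 6-base word, read on either strand, was counted in the 200-bp summit windows, and 1519 words occurred in at least 1% of all windows. Ranked by the ratio of their share in BURs bound in both lists to that in neither, the 5 highest were ATTAGC (2.50), CTAATA (2.41), ACTAAT (2.34), ATTAGG (2.14) and CATTAG (2.12). All 5 hold CTAAT on 1 of their strands. CTAATA stood in 47.8% of windows bound in both lists and in 19.8% of those bound in neither. The ratio of ATTAGC was 2.28 in replicate 1 alone and 2.31 in replicate 2. The same 5 words were the highest among unique BURs, with ratios from 1.90 to 2.31. At the other end stood CTCGAA with a ratio of 0.409, and among unique BURs TATATA with 0.680. Words were chosen by this ratio, so it describes them and tests nothing.

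Counting CTAAT alone ordered the BURs steeply. CTAAT was searched as those 5 letters on both strands, with ATTAG as its reverse complement. It occurred in 76.4% of windows bound in both lists, in 64.8% of those bound in 1 list, in 44.0% of those bound in neither and in 56.0% of all BUR windows. For unique BURs it was 77.2% in both and 49% in neither. Windows of 200 bp laid end to end over the same chromosomes held it in 29.9% of cases, but they were not matched to BURs in AT content. AT content was 58.2% over the assembly. In summit windows it averaged 73.1% for BURs bound in both lists and 72.2% for those bound in neither. Without a copy, 27.8% of 67384 unique BURs were bound in replicate 1 and 24.6% in replicate 2. With 2 copies the shares were 62.2% and 58.7%, with 4 copies 87.8% and 86.6%, and with 5 copies 94.2% and 92.6% of 501. The median in vitro fold rose as well, from 5.22 without a copy to 6.84 with 4 and 7.38 with 5. It was 9.12 for the 152 unique BURs with 6 or 7 copies and 14.5 for the 20 with 8 or more.

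The count and the in vitro fold went with occupancy side by side. At an in vitro fold under 4, 8.89% of unique BURs without CTAAT, 28% with 2 copies and 45.5% with 3 or 4 copies were bound in both lists. At a fold of 9 or more these shares were 40.3%, 80.6% and 90.5%. Shares were lower beside a long A/T-only stretch at each count up to 4. With 3 or 4 copies, 75.6% of unique BURs were bound in both lists when the stretch was 10 to 14 bp and 23.4% of 124 when it was 35 to 49 bp. In the thymus lists the shares without CTAAT were 7.56% and 6.81% and with 4 copies 62.1% and 55.8%. In the skin lists they were 1.75% and 1.76%, and 18.9% and 18.5%. These 4 lists were not used to choose the word, but their bound BURs lie mostly within those bound in brain (below). A match is a description of the sequence and does not show that SATB1 touched it.

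**Figure D3:**
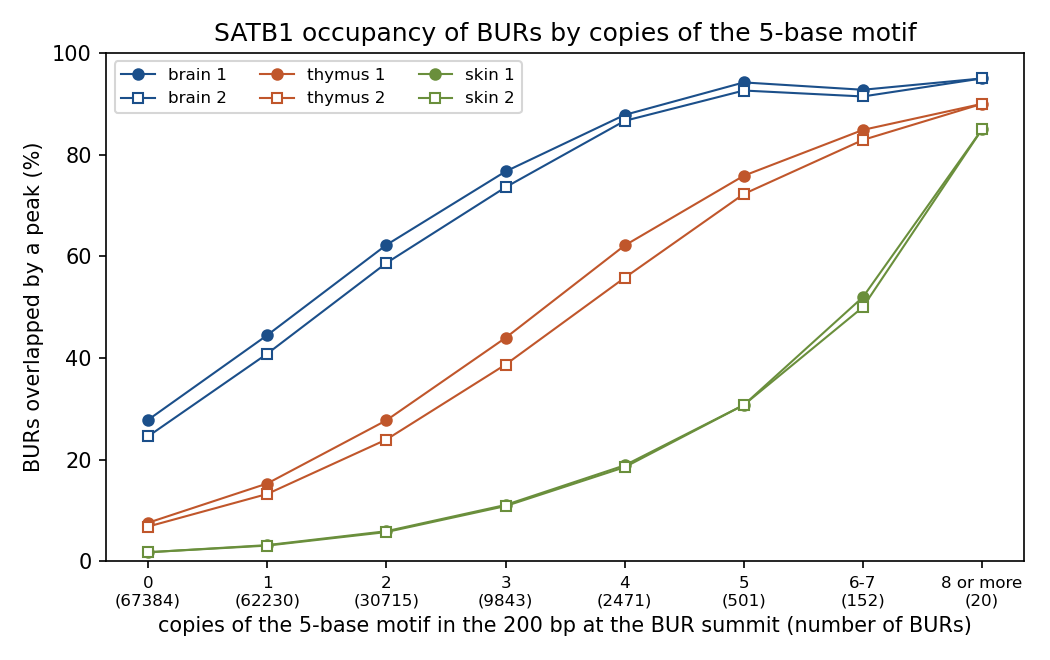
Share of unique BURs overlapped by a SATB1 peak (%, vertical axis) by the number of copies of the 5-base word, on either strand, in the 200 bp at the BUR summit (horizontal axis, with the number of BURs in parentheses). Circles are replicate 1 and squares replicate 2. The share rises from 27.8% to 95.0% in brain replicate 1 and in all 6 lists the lowest value is that of BURs without a copy.

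Genomic place made little difference. Genes of every type in the GENCODE vM1 annotation were used, and a BUR was intergenic when it overlapped none. Of the BURs bound in both lists 65.2% were intergenic, and of those bound in neither 65.3%. The share bound in both lists was 31.3% of 151510 intergenic BURs, 31.2% of 70942 in introns, 33.9% of 7478 on exons and 29.7% of 2138 within 1 kb of a start site. For unique BURs these shares lay between 36.5% and 38.7%.

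Distance to genes had a graded but small relation with occupancy. BURs within 1 to 10 kb of a start site were bound in both lists in 26.3% of cases and those more than 1 Mb away in 37.6%. Among unique BURs the same classes gave 34.5% and 40.4%. BURs with under 5 other BURs within 50 kb were bound in 21.9% of cases, and those with 25 or more in 37.9%. For unique BURs these values were 33.2% and 39.9%, a narrower range. By chromosome the share ran from 25.9% on chromosome 7 and 27.2% on chromosome X to 34.1% on chromosome 16. Over unique BURs chromosome X was lowest with 34.1% and chromosome 14 highest with 38.8%.

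Bound BURs did not lie in long blocks. The 72789 BURs bound in both lists formed 49848 runs, in which each next BUR along the chromosome was also bound, with a mean of 1.46 BURs per run. Only 526 runs held 5 or more BURs, and the longest held 11. The BUR that followed a bound one was bound in 31.5% of cases and the BUR that followed an unbound one in 31%, a difference of 0.484 percentage points. In replicate 1 alone this difference was 1.05 and in replicate 2 it was 0.782. Among unique BURs the order was turned, with 36.1% after a bound and 37.7% after an unbound BUR.

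The comparison differed with the gap between neighbours. Where the gap was 1 to 2 kb, 29.2% of BURs were bound after a bound one and 34.7% after an unbound one. Where it was 10 to 20 kb, the shares were 32.4% and 28.4%. Unique BURs gave 32.6% against 39.9% at 1 to 2 kb and 37.7% against 36.4% at 10 to 20 kb. At 1 to 2 kb both lists gave a negative difference in either set. At under 1 kb the difference over all BURs was 0.251 points in replicate 1 and −0.465 in replicate 2, so the lists did not share a sign there.

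The longest runs bound in both lists were short in base pairs too. The 2 runs of 11 BURs spanned 45.7 kb on chromosome 4 (78987500 to 79033194), where no protein-coding gene lay, and 46.5 kb on chromosome 7 (93553642 to 93600176) over the olfactory receptor gene Olfr301. A run of 10 on chromosome 4 (112853584 to 112907105) lay in Skint6, a gene of the butyrophilin-like family expressed in skin and thymus. Of 5 runs of 9 BURs, the first 2 in chromosome order lay on chromosome 4 (28231884 to 28274977) and chromosome 8 (101339648 to 101409292), and they had no protein-coding gene. The median brain fold enrichment of these runs was between 5.05 and 8.82 in replicate 1. Of the 11 BURs of the first run 3 were bound in each thymus list and 0 in skin. When only unique BURs were followed, the longest run had 13 BURs, on chromosome 8 (53871423 to 53931770), and one of 11 lay in Ntm, which encodes the neural adhesion protein neurotrimin, on chromosome 9 (29179884 to 29368966).

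Unbound BURs formed longer runs, and most of those with 25 or more BURs lay in repeated sequence. BURs bound in neither list made up 59.9% of all BURs, and those bound in both 31.4%. Among unique BURs these shares were 52.9% and 37.1%. Run lengths of both classes are thus not directly comparable. The longest unbound run held 207 BURs over 4090 kb of chromosome X (26287203 to 30377174), and the next held 137, also on chromosome X (51501523 to 52605417). The next pair held 136 and 129 BURs on chromosome 7, over genes of the Vmn2r family (7407542 to 8889143) and of the Vmn1r family (22015144 to 23383823), which encode vomeronasal pheromone receptors. The fifth held 119 on chromosome 14 (41942502 to 43984677). In the first 4 the median share of unique 50-mers was 0% and in the fifth it was 12.0%. Of 58 unbound runs of 25 or more BURs, 47 had a median share under 50%. Among unique BURs no unbound run exceeded 20. Of 3 runs of 20 BURs, one spanned 1540 kb of chromosome 12 (105374882 to 106915127). It held Dicer1 and the Serpina3 genes, which encode the small-RNA ribonuclease and serine protease inhibitors. The median in vitro fold was 8.02 in this run, 5.68 in the one on chromosome 14 and 4.54 in the one on chromosome X.

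**Figure D4:**
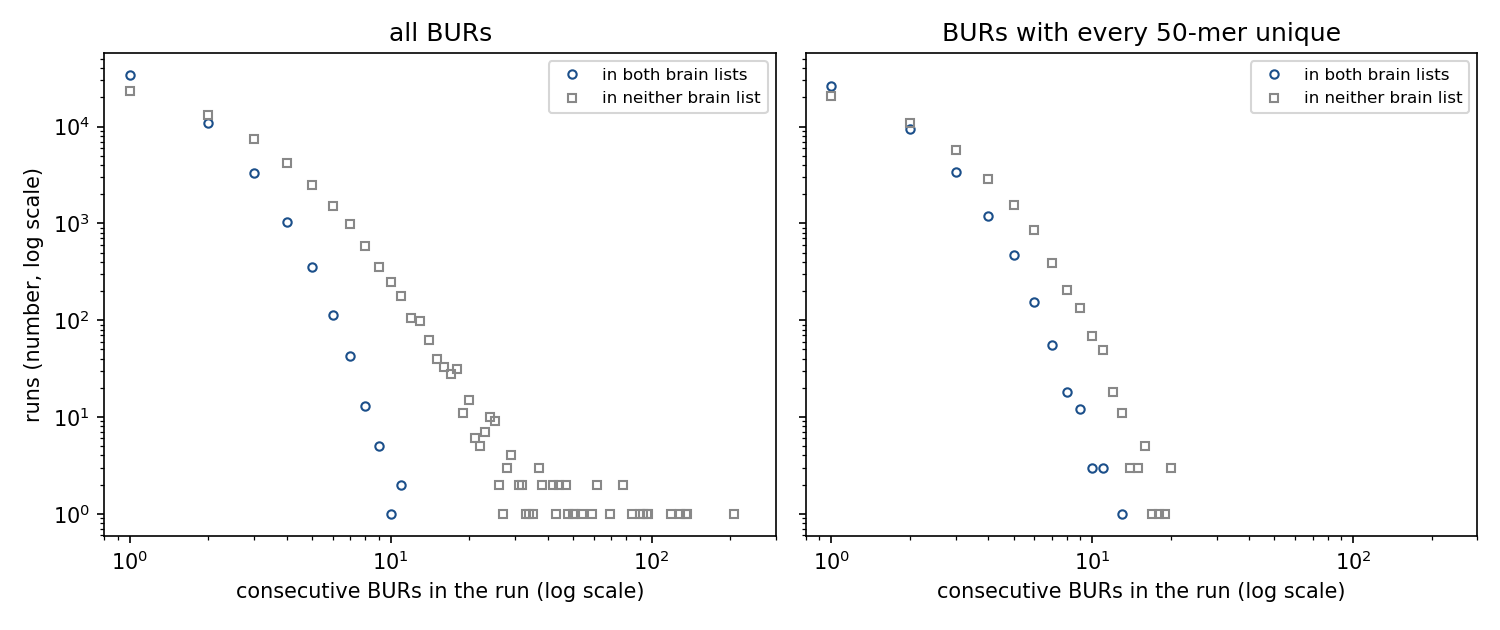
Number of runs (vertical axis, log scale) by the number of consecutive BURs in the run (horizontal axis, log scale). Blue circles are runs of BURs bound in both brain lists and grey squares runs bound in neither, for all BURs (left) and for BURs whose every 50-mer is unique (right). The long grey tail, up to 207 BURs, is present on the left and ends at 20 BURs on the right.

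The bound share differed widely between genes. Among 741 protein-coding genes with at least 20 BURs in the gene body, the mean of the shares of both lists had a median of 39.5%, with quartiles at 33.3% and 44.6%, and ran from 0% to 70.8%. The shares of replicates 1 and 2 had a Spearman's rho of 0.84 across these genes. The SD between the lists had a median of 2.67 percentage points. Both lists score the same BURs, so this SD does not show how far a share over as few as 20 BURs varies with the BURs a gene holds. That spread was not measured. Genes were ranked on these values, so the 12 at each end are a description.

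The gene with the highest share was Sis, which encodes the intestinal enzyme sucrase-isomaltase and lies on chromosome 3 (72692479 to 72771785). Of its 24 BURs 17 were bound in each list, which is 70.8%. Nova1, a neuronal splicing regulator on chromosome 12 (47795504 to 47919762), had 19 and 18 of 28 BURs bound. The adhesion molecule gene Chl1 had 16 and 15 of 27, and Glra3, which encodes a glycine receptor subunit, had 23 and 24 of 41. St18, a zinc finger transcription factor gene, had 31 and 26 of 48 BURs bound, and the fibrillar collagen gene Col11a1 had 33 and 28 of 51. The other genes of the top 12 were 2810055G20Rik, Itgb3bp, C230081A13Rik, Skap2, Atpbd4 and Ccdc88a, with mean shares from 57.5% to 64.6%. Neuronal genes thus stood beside genes that are not known for a neuronal role, such as Sis and Col11a1.

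At the low end stood predicted genes in repeated sequence. Gm16430 on chromosome X had 0 of 28 BURs bound in either list, Gm8897 2 and 1 of 41, Gm8871 1 in each list of 25, and Gm13242 4 and 3 of 33. The median share of unique 50-mers in these genes was 0%, 5.27%, 0% and 26.1%, and only 1 of their BURs was unique. Gm20388 has an annotated span of 4435 kb, had 8 of 75 BURs bound in each list and a mean AT content of 61.1%. In the remaining 7 genes the median share of unique 50-mers was 100%. Tnik, a kinase gene active in neurons on chromosome 3 (28162136 to 28574780), had 4 and 3 of 26 BURs bound, and its 21 unique BURs had a mean share of 16.7%. Slc4a4, which encodes a sodium bicarbonate cotransporter and lies on chromosome 5 (89315843 to 89668678), had 6 and 3 of 32 bound. Accn1, an acid-sensing ion channel gene, had 6 in each list of 37, and the adaptor gene Gab2 4 and 3 of 20. Csnk1g3, Pdss2 and BC052040 had mean shares between 15.0% and 16.7%.

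These ranks depended on which BURs were counted. With only unique BURs, 570 genes had at least 20, their median share was 44.1%, and 6 of the highest 12 and 5 of the lowest 12 were the same genes. Nova1 was then highest with 74.0% and Slc4a4 lowest with 16.0%. With at least 50 BURs required, 224 genes were left, the shares ran from 10.7% to 59.8%, and 1 gene at each end, Col11a1 and Gm20388, was the same. Among those genes Foxp2, a forkhead transcription factor gene expressed in cortex and striatum, had 61 and 57 of 114 BURs bound, and Pcdh11x, a protocadherin gene, 77 and 69 of 146. Gabrg3, a GABA-A receptor subunit gene, was among the lowest with 17 and 14 of 53.

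**Figure D5:**
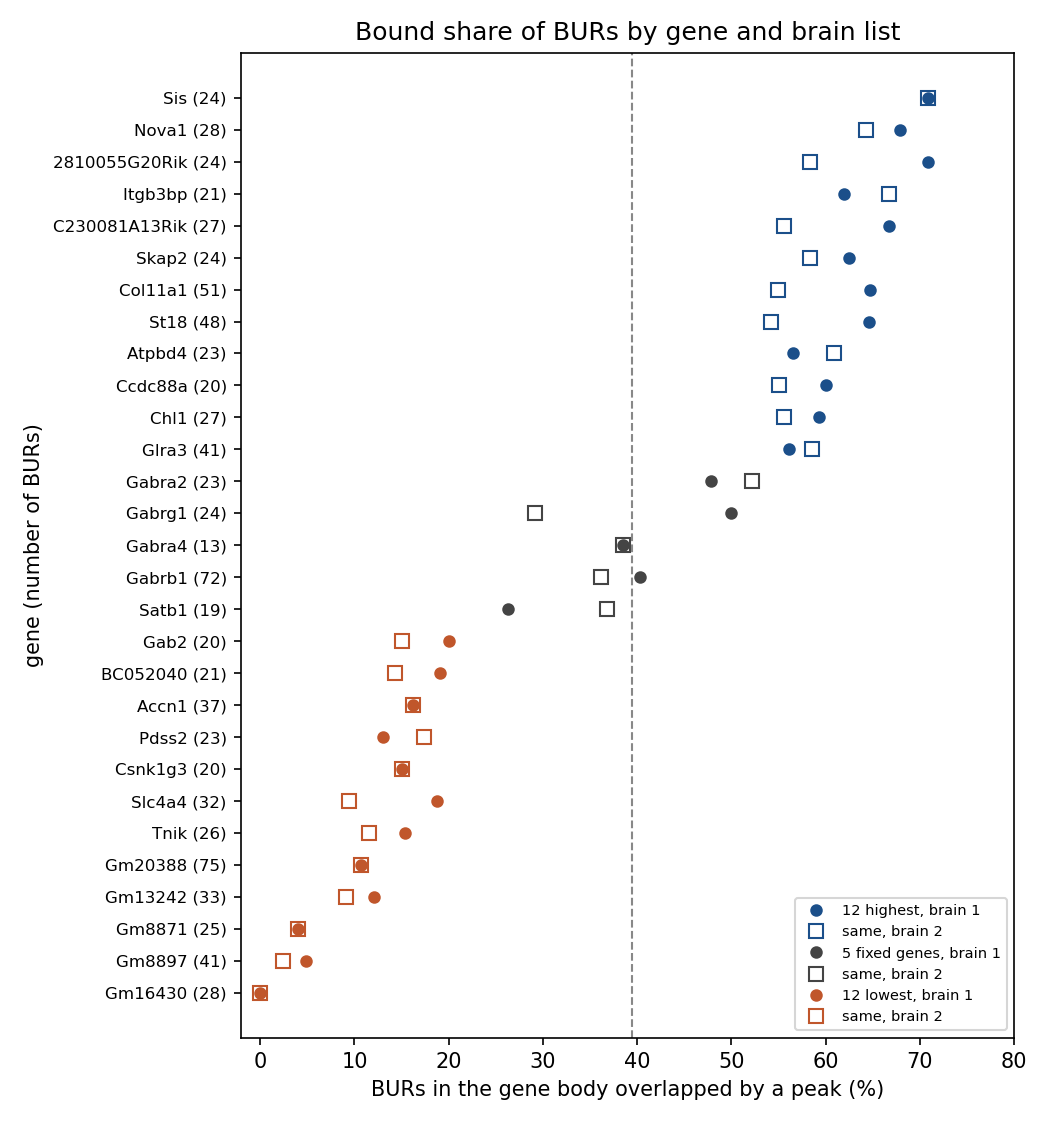
Share of BURs in the gene body overlapped by a brain SATB1 peak (%, horizontal axis) for the 12 genes with the highest and the 12 with the lowest mean share among genes with at least 20 BURs, and for 5 fixed genes. Circles are brain replicate 1, squares replicate 2, the number of BURs is in parentheses and the dashed line is the median of all 741 genes, 39.5%. The SD between the lists is at most 8.84 points for the ranked genes, and 14.7 points for Gabrg1, with 50% and 29.2%.

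The 5 genes below had been fixed for description whatever their rank. Satb1 itself, on chromosome 17 (51875512 to 51972615), held 19 BURs, of which 5 were bound in replicate 1 and 7 in replicate 2. In skin 10 of the 19 were bound in each list and in thymus 5. A cluster of GABA-A receptor subunit genes on chromosome 5, which encode the main inhibitory receptor of the brain, gave middling shares. Gabra2 had 11 and 12 of 23 BURs bound, Gabra4 5 in each list of 13, and Gabrb1 29 and 26 of 72. Gabrg1 had 12 of 24 bound in replicate 1 and 7 in replicate 2. In thymus 0 of the 24 BURs of Gabrg1 were bound and in Gabra2 3 of 23 in each list, which is 13.0%. Over all BURs the bound shares were 37.2% and 34.2% in brain, 14.6% and 12.9% in thymus and 3.71% and 3.64% in skin. The thymus share of Gabra2 was thus near that of all BURs.

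Gene families were compared by pooling the BURs in and within 10 kb of their members. Around all protein-coding genes 30.6% of 91811 BURs were bound in both lists, and 36.9% of the unique ones. Cadherins and non-clustered protocadherins, which join cells by calcium-dependent adhesion, stood at 37.5% of 1429 BURs and 41.6% of 1208 unique ones. Synaptic adhesion genes stood at 35.9% of 3037 and 38.6% of unique BURs, and ionotropic glutamate receptors at 36.6% of 744 and 39.1%. GABA-A receptor subunits (32.5%), potassium channels (32.1%) and voltage-gated sodium and calcium channels (29.9%) lay nearer to the share of all genes, with 37.5%, 37.0% and 38.5% of their unique BURs bound.

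The other families were closer to the share of all genes or below it. Olfactory receptors had 34.2% of 3346 BURs bound in both lists and 36.9% of their unique BURs, the same as all genes. Vomeronasal receptors had 22.2% of 1424, of which 38.8% were unique, and 31.2% of the unique ones. T-cell genes had 17 of 95 BURs bound in both lists (17.9%), and 16 of 65 unique BURs (24.6%), and keratins 11 of 50 and 10 of 26 unique BURs. The Zfp genes (27.5%) and the cytoplasmic ribosomal proteins (22.8%) came to 35.1% and 31.1% over unique BURs. BURs of 1 gene share their neighbourhood, so no test over BURs was made.

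Brain bound more BURs than thymus and skin, and most BURs bound in those tissues were also bound in brain. The urea SATB1 lists of thymus and skin came from SATB1 wild-type C57BL/6 mice with the same antibody, the skin lists from primary epidermal keratinocytes. Their labels give postnatal day 13, but for skin the protocol text and the methods text each give another, younger age. Since ages are unsettled for brain and skin, age and tissue cannot be told apart. They bound 14.6% and 12.9% of BURs in thymus and 3.71% and 3.64% in skin, all below the brain values of 37.2% and 34.2%. Of the 26260 BURs bound in both thymus lists 97.6% were bound in both brain lists, which is 35.2% of the brain set, and of 7236 bound in both skin lists 93.0% were, which is 9.25% of it. Among unique BURs bound in both brain lists, the 33321 bound in no thymus or skin list had a median in vitro fold of 6.22 and a median brain fold of 7.16 and 6.85. For the 30898 that were also bound in a thymus or skin list these were 8.13, 12.7 and 12.4. Those bound in brain alone were thus the weaker ones on both measures, and their mean CTAAT count was 1.17 against 1.63. The thymus and skin lists bound far fewer BURs, most of them within the brain set. How far the size of the lists accounts for this order was not tested.

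The difference in bound share between brain and the 4 other lists was 27 percentage points. An exact two-sided permutation test over 15 arrangements of the lists gave p = 0.133 (adjusted over 4 measures, 0.133), which is the smallest value that 2 against 4 lists allow. Bound BURs were longer than unbound ones by 56.5 bp on average in brain and by 69.5 bp in the other lists, with the same exact permutation p of 0.133. For unique BURs the lists overlapped, with 84 and 80 bp in brain, 80 and 85 bp in thymus and 91 and 92 bp in skin. The AT content of bound minus unbound BURs was above 0 in both brain lists and under 0 in the 4 others, between −0.623 and −2.37 percentage points, and for unique BURs it was under 0 in all 6 lists. The number of peaks per list was not equal. When every list was reduced to its 10846 peaks with the highest −log10 q, brain lists bound 4.69% and 4.66% of BURs, thymus lists 4.32% and 4.31% and skin lists 3.62% and 3.64%. With the number of peaks fixed, this share is largely set in advance. It shows mainly how many of those peaks lay on BURs, not how many BURs each tissue binds. In the reduced lists bound BURs were longer by 120 and 112 bp in brain and by 75 to 79 bp in the others, so the order for length was turned.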

How the data were processed

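The BUR reference map (1 list) and 2 brain urea SATB1 ChIP-seq lists were analysed, with 2 thymus and 2 skin urea SATB1 lists for comparison. The lists of standard ChIP-seq and of CTCF served only to find 57 regions covered by a peak in each of 11 lists. The members and gene lists were chosen with earlier results of these data known. The authors mapped 50-bp single-end reads to mm9 with Bowtie2 2.3.1, allowing 3 mismatches in the seed and keeping unique matches, and called peaks in each sample (MACS2 2.2.7, q-value 0.01). The use of an input in peak calling is not stated in the sources used here. The deposited fold enrichment is a ratio to that sample's own local background. The deposited −log10 q belongs to each list alone. The deposited display score was not used. The lists hold no counts, so the depth of each list was not checked, and precision is that of the spread between 2 lists.

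Overlaps needed 1 bp. Sequence came from NCBIM37 and genes from GENCODE vM1, and 5 BURs that end beyond the assembly were read up to its end. A 50-mer was unique when it occurred once on either strand. Fold and length were compared by medians, the other measures by means. The genes named were the 12 highest and 12 lowest by mean share among protein-coding genes with at least 20 BURs, and 6 fixed genes. 1 fixed gene and some sequences chosen by the same rules are not reported here. Python 3.11.15, numpy, scipy, pandas, numba and matplotlib were used, and functions were tested on simulated data. The only tests were exact two-sided permutations of brain against thymus and skin lists. Alternatives were overlap by summit or by 50% of the BUR, a −log10 q of at least 5, lists of equal size, each brain list left out, regions common to all lists left out, chromosomes 1 to 19 only, other windows, gene sets, gaps, flanks and BUR minimums, and permutation within replicate numbers. Unique BURs, the A/T-only stretch and CTAAT were added after the data were seen. The replicate numbers do not mark shared animals across tissues.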

Additional observations from a re-analysis of the deposited data

Results flagged for a closer look

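The difference in AT content between bound and unbound BURs went one way in both brain lists and the opposite way in all 4 thymus and skin lists. Bound BURs were 0.956 and 0.811 percentage points more AT-rich in brain, −0.623 and −1.03 points in thymus, and −2.36 and −2.37 points in skin, a difference of 2.48 points between brain and the others. The exact permutation test of this difference gave p = 0.133, the smallest the 6 lists allow. It was 2.45 with lists of equal size. For BURs with every 50-mer unique the values were −0.690 and −0.782 in brain, −1.81 and −2.15 in thymus and −3.25 in both skin lists, all of the same sign.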

How the results depend on the processing

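Values are bound in both lists minus neither. They are counted as moved when they changed by more than the SD between the 2 brain lists, which was small (0.005 for the fold). With the BUR summit inside the peak, the length difference was 56 bp, the fold difference 1.92, the C- or G-free stretch −12.8 bp, the intergenic difference −0.38 points and the following-BUR difference 0.11 points. With 50% of the BUR covered they were 52 bp, 1.89, −12.6 bp, −0.602 and −0.144 (reversed), and AT 0.775. A −log10 q of at least 5 gave 1.89, −12.4 bp and −0.142 for fold, stretch and intergenic, and brain lists of equal size 1.96, −12.0 bp and −0.21. Chromosomes 1 to 19 gave a fold difference of 1.93, a stretch of −12.3 bp, intergenic 0.0428 (reversed) and following 0.207. The whole BUR gave a stretch of −11.3 bp, protein-coding genes an intergenic difference of −0.734, and gaps of at least 5 kb a following difference of 4.24 points. Leaving out either brain list gave 34.2 to 37.2% bound, 55 to 58 bp, 1.66 to 1.67, AT 0.811 to 0.956, −11.3 bp, intergenic −0.134 to −0.150 and following 0.782 to 1.05.

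Unique BURs, chosen after seeing the data, gave 37.1% bound, 90 bp, 2.47, AT −0.829 (reversed), −4.60 bp, intergenic −0.417 and following −1.63 (reversed). The cause of these changes was not tested. AT content, place and the following BUR thus have no stable sign, while length, fold and the C- or G-free stretch kept theirs under every setting listed. The A/T-only stretch and CTAAT kept theirs too. They were chosen after these same lists were seen, so their stable sign tests nothing. With all lists of equal size, the length difference of brain against thymus and skin was 38.8 bp (reversed). Permutation within replicate numbers, the replicate block, gave p = 0.222 for each of the 4 measures, the smallest it can give, so neither fit could make or lose a call. Without either brain list the exact permutation p was 0.40. Of 30 named genes, 14 shares moved beyond the SD between lists with flanks of 50 kb and 12 of 27 with unique BURs. The depth of each list was not checked, and BURs without unique 50-mers cannot be judged.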
